A study of Homo sapiens with 21 samples.

Results

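MAP kinases are the last enzymes of relay chains that carry growth factor, stress and calcium signals into the nucleus. The ERK kinases answer mainly to growth factors, and the JNK and p38 kinases mainly to stress. Cells limit these signals by feedback. Dual-specificity phosphatases (DUSPs) remove the phosphates that keep a MAP kinase active, and many of their genes are themselves switched on by the kinases they act on. Sprouty proteins act further up the chain, between growth factor receptors and RAS, and their genes are also induced by ERK signalling. Because these mRNAs follow kinase activity and turn over quickly, they are often read as a record of recent MAP kinase signalling.

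The expression of 10 genes of this feedback was examined, taken by gene name from the 58735 genes in the deposited table. DUSP1, DUSP2 and DUSP4 encode inducible nuclear phosphatases. DUSP5, which is nuclear, and DUSP6, which is cytoplasmic, act selectively on ERK. DUSP8, DUSP10 and DUSP16 act mainly on JNK and p38. SPRY2 and SPRY4 encode Sprouty proteins. All 10 genes had a mean of at least 0.5 FPKM over the 21 libraries, where FPKM is the number of fragments corrected for the length of the gene and the depth of the library, and so all were among the 14686 genes tested.

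In the deposited annotation, all 10 are protein-coding genes. On the minus strand lie DUSP1 (ENSG00000120129, 5:172768090-172771195), DUSP2 (ENSG00000158050, 2:96143166-96145440), DUSP6 (ENSG00000139318, 12:89347232-89353271), DUSP8 (ENSG00000184545, 11:1554044-1571920) and DUSP10 (ENSG00000143507, 1:221701424-221742176). DUSP16 (ENSG00000111266, 12:12474210-12562383), SPRY2 (ENSG00000136158, 13:80335976-80340951), SPRY4 (ENSG00000187678, 5:142310427-142326455) and DUSP4 (ENSG00000120875) are on it as well. DUSP5 (ENSG00000138166, 10:110497838-110511544) is on the plus strand.

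The libraries were made from MDA-MB-453, a human breast cancer cell line that is negative for estrogen receptor alpha, and each of 7 groups had 3 of them. The study asked whether calcium and cadmium act through the orphan nuclear receptor ESRRB. Apart from the control, cells received for 24 h either 10 mM calcium, 10 μM cadmium, the ESRRB agonist GSK4716 (5 μM) or 10 μM diethylstilbestrol (DES), a synthetic estrogen used as an ESRRB antagonist. In the groups given a metal as well as DES (DES with calcium, DES with cadmium), DES came 3 h ahead of the metal, and any difference in the time with DES cannot be told apart from the metal. Calcium and GSK4716 were given without serum and cadmium in a low level of charcoal-stripped serum. The paper's methods do not say which of these media the groups with DES received. The only control group has no medium stated for it, so medium and treatment cannot be told apart. The paper gives ethanol as the solvent of GSK4716 and DES, and names no vehicle for the control or the metals. Unless those groups also received ethanol, its effect cannot be told apart from that of GSK4716 or DES in comparisons with them. Nothing states that replicates were separate cultures, and p-values then measure the spread between these libraries, which may be technical.

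Each library held 14435925 to 28424805 fragments on genes (median 18314738). The lowest number of fragments behind a value of the 10 genes was 41, for SPRY2 in control replicate 3, and the highest was 7717, for DUSP4 in DES with calcium replicate 2. Among luminal markers, KRT19 was the most abundant at a mean of 699 FPKM. ESR1 and PGR, which the line lacks, reached 0.199 FPKM together at most. The 3 leukocyte markers reached 1.05 and the 3 endothelial markers 0.543. The 4 fibroblast markers summed to 9.35 to 32.9 FPKM, nearly all of it COL1A1, with a mean of 14.8. In bulk RNA, fewer cells of a kind and less RNA per cell cannot be told apart.

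Some libraries stood apart from their groups. Cadmium replicate 1 correlated better with the control libraries (mean Pearson r of 0.929 over the genes tested) than with the other cadmium libraries (0.901). Cadmium replicate 3 was the cadmium library least like its own group (0.886) and least like the control (0.823), with 31147 genes above 0. In DES with cadmium replicate 1 the library size behind the FPKM was 0.693 times the fragments on genes, the lowest ratio of the 21, and the highest was 1.15. The number of genes above 0 ran from 16605 in DES with cadmium replicate 1 to 35112 in DES replicate 3.

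**Figure D1:**
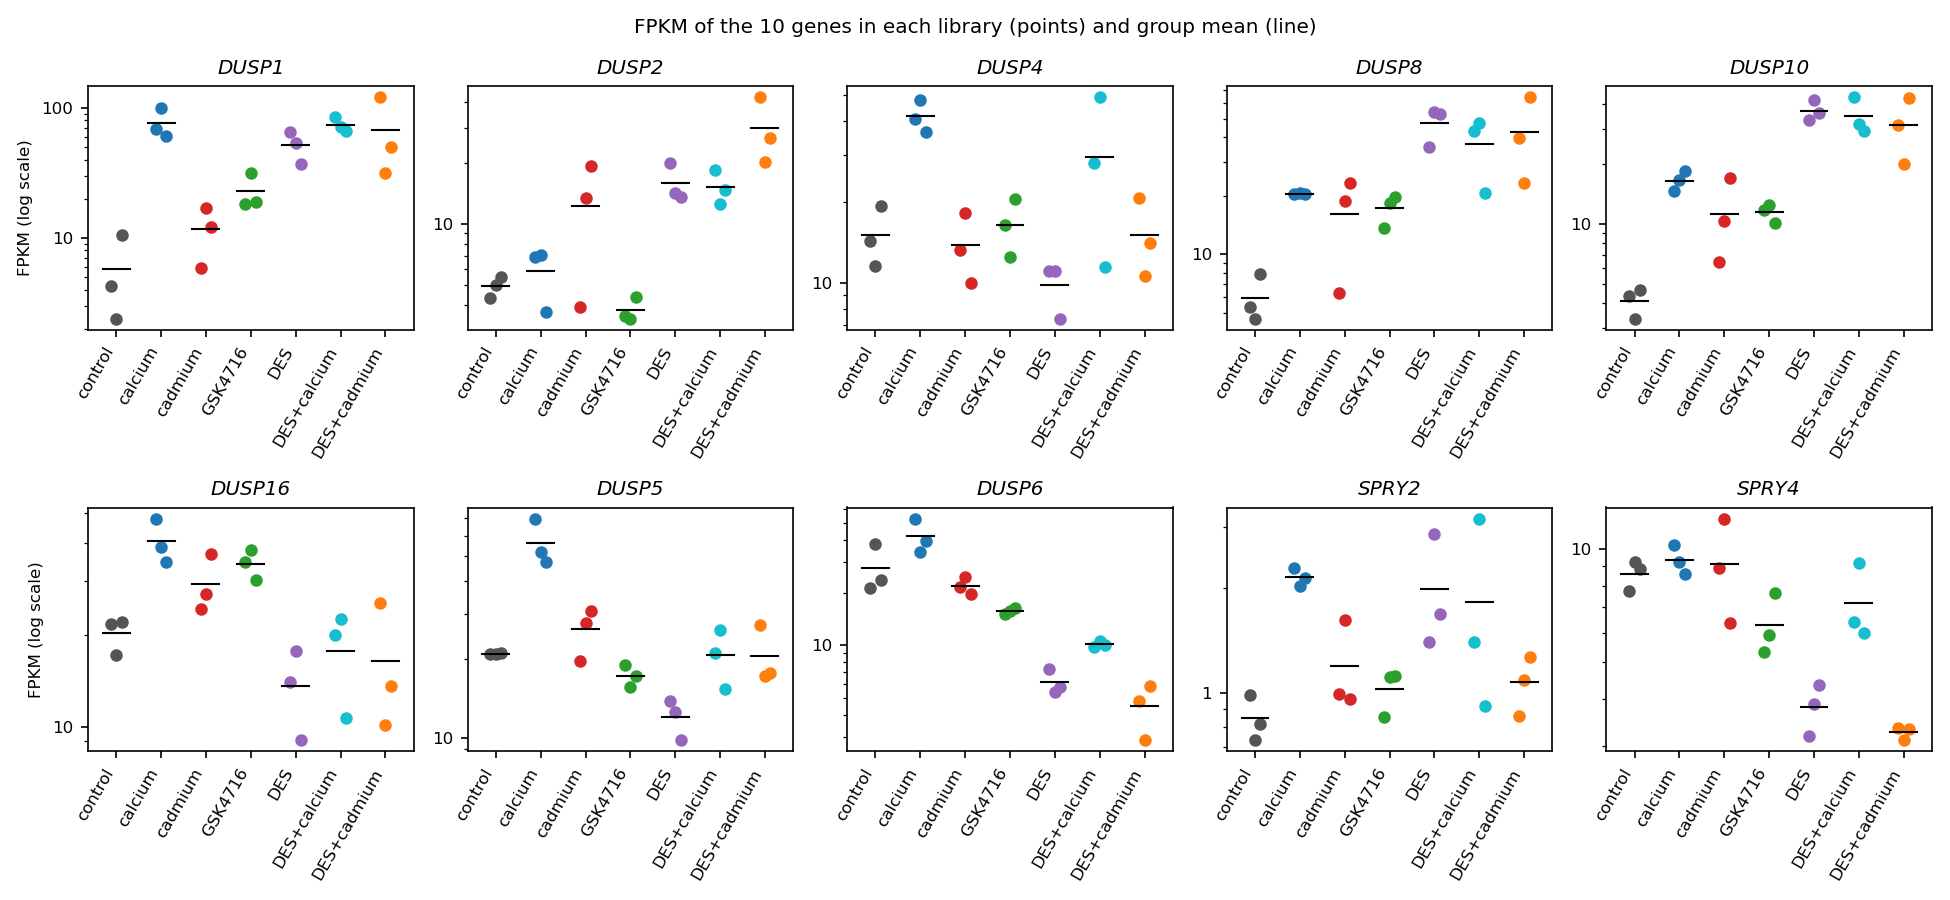
FPKM of each of the 10 genes (log axis, 1 panel per gene) in the 7 groups, with points for the 3 libraries of a group and a line at the group mean. DUSP8 and DUSP10 are lowest in the control and highest in the 3 groups with DES, while DUSP6 and SPRY4 are lowest with DES and with DES and cadmium.

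DUSP1, DUSP8 and DUSP10 were the genes whose response to calcium differed most with DES, as described further on, and their promoters are shown for that reason. The sequences are the 250 bases before the RefSeq start site on GRCh38.p14, all on the minus strand and read 5′ to 3′. RefSeq promoters matched 8 of the 10 genes, with 11 start sites, and DUSP4 and DUSP5 had no entry. Capitals mark the cAMP response element TGACGTCA, the site of CREB and ATF factors, which is its own reverse complement.
DUSP1 promoter (chr5:172771196-172771445): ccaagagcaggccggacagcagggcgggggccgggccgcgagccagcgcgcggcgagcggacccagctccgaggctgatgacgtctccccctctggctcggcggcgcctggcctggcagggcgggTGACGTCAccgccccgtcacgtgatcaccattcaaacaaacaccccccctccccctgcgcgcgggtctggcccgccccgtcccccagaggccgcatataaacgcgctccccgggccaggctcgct
DUSP8 promoter (chr11:1572272-1572521): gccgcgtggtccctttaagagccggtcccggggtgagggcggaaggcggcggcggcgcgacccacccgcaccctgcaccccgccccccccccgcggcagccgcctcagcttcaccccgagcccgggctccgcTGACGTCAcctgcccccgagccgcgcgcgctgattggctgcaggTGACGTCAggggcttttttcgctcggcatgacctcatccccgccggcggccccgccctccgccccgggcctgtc
DUSP10 promoter (chr1:221742090-221742339): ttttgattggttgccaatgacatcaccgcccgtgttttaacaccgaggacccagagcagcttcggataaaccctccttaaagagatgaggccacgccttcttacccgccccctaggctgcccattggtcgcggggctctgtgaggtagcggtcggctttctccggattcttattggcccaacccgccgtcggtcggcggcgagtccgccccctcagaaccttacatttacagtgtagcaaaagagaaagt
The element occurred once before DUSP1, with its first base 125 bases upstream of the start, and at 118 and 74 bases upstream of DUSP8. It was in none of the other 9 windows, including both of DUSP10. Of 35116 RefSeq promoter windows of the same length, 1.65% held it.

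In all, 5 motifs were searched for on both strands. The shorter TGACG, which lies within the cAMP response element, occurred 4 times before DUSP1, 4 times before DUSP8 and once each before 1 of 3 SPRY2 starts and before SPRY4, against 21.2% of all windows. The cAMP response elements account for all 4 of DUSP8 and for 2 of the 4 of DUSP1, since each holds 1 match on either strand. The AP-1 element TGANTCA (6.57% of all windows), the estrogen-related receptor element TNAAGGTCA that the study searched for (0.854%) and the CArG box of serum response factor (1.16%) were in 0 of the 11 windows. A match describes letters only, and these 250 bases leave out more distant elements. The first RefSeq start is the gene end of the deposited annotation for DUSP1 and DUSP2 but not for DUSP6, DUSP8, DUSP10, DUSP16, SPRY2 and SPRY4. The motifs and the promoters shown were chosen after the fits were seen.

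With calcium, 7 of the 10 genes were called higher and none lower. Tests were run with limma on log2(FPKM + 0.1), and genes with an adjusted p under 0.05 (Benjamini-Hochberg, over all genes tested) are said to be called. The added 0.1 makes the fold changes of low genes smaller than those of their FPKM. Of all genes tested, 4.60% were called higher and 2.53% lower with calcium. The median log2 fold change of the 10 genes was 1.33, against -0.01 over all genes tested.

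Among the inducible nuclear phosphatases, DUSP1 had 4.24, 2.39 and 10.5 FPKM in the control libraries and 68.5, 99.1 and 61.0 with calcium. Every calcium library lay several-fold above every control library, although the control libraries also differed among themselves. The increase was 15.3-fold, or 3.94 on the log2 scale (standard error 0.53, adjusted p = 0.0166 by limma). DUSP4 had 14.3, 11.6 and 19.4 FPKM in the control and 40.6, 47.8 and 36.6 with calcium, without overlap, and rose by 1.48 on the log2 scale (adjusted p = 0.0197 by limma). DUSP2 overlapped the control, with 3.68 to 7.08 FPKM against 4.31 to 5.51, and its log2 difference was 0.19 (95% interval -0.50 to 0.88).

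The JNK and p38 phosphatases all rose. DUSP8 went from 5.36, 4.65 and 7.88 FPKM to 20.3, 20.7 and 20.3, or by 1.80 on the log2 scale (standard error 0.20, adjusted p = 0.0123 by limma). DUSP10 went from 4.36, 3.35 and 4.65 FPKM to 14.6, 16.6 and 18.3, or by 1.99 (standard error 0.17, adjusted p = 0.00933 by limma). For both genes the lowest calcium library was above the highest control library. Both are in a list that the study drew from these libraries, of genes higher with calcium, cadmium and GSK4716 alike, so their direction in these 3 comparisons is not independent evidence. The rise of DUSP16 was smaller, from a mean of 20.4 ± 2.73 to 40.5 ± 6.90 FPKM (SD, n = 3), with a log2 fold change of 0.98 (adjusted p = 0.0284 by limma).

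The ERK-selective phosphatases differed from each other. DUSP5 was tightly grouped in the control, at 20.9, 20.9 and 21.3 FPKM, and reached 69.8, 52.1 and 47.4 with calcium, a rise of 1.40 on the log2 scale (standard error 0.16, adjusted p = 0.0123 by limma). DUSP6, with 21.4, 37.8 and 23.6 FPKM in the control and 53.2, 34.4 and 39.7 with calcium, overlapped between the groups and was not called (0.64 on the log2 scale, 95% interval -0.01 to 1.29, adjusted p = 0.218 by limma). Of the Sprouty genes, SPRY2 was low but rose from 0.988, 0.732 and 0.817 FPKM to 2.29, 2.03 and 2.13, by 1.26 on the log2 scale (adjusted p = 0.0260 by limma). SPRY4 was at 8.60 ± 0.787 and 9.35 ± 0.823 FPKM (SD, n = 3), a difference of 0.12 on the log2 scale (95% interval -0.20 to 0.44).

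The calls, more than the fold changes, depended on single libraries. Without control replicate 1, 0 of the 10 genes and 7 of all genes were called by limma, while the fold changes stayed similar (3.86 for DUSP1, 1.74 for DUSP8 and 2.03 for DUSP10). Of the 10 genes, 1 (DUSP10) was called without control replicate 2. The number was 5 without control replicate 3, 3 without calcium replicate 1 or 2 (DUSP5, DUSP8 and DUSP10), and 6 without calcium replicate 3. With no filter on low values it was 0, where DUSP10 had an adjusted p of 0.0530 by limma, and with limma-voom on the fragments 7. With all 7 groups in one fit it was 5, without DUSP16 and SPRY2. Scaled by total fragments on genes, calcium called 545 of all genes higher and 560 lower, against 675 and 371 as deposited, and the same 7 of the 10 genes were called. Mitochondrial genes took 4.88% to 7.55% of fragments with calcium and 7.70% to 8.19% in the control. Of the 8 luminal markers, KRT8 (1.79) and KRT18 (1.65) were called higher with calcium by limma and none lower. The median log2 difference of the 8 was 0.27, and the lowest was -0.46. The part of either in these results was not tested.

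**Figure D2:**
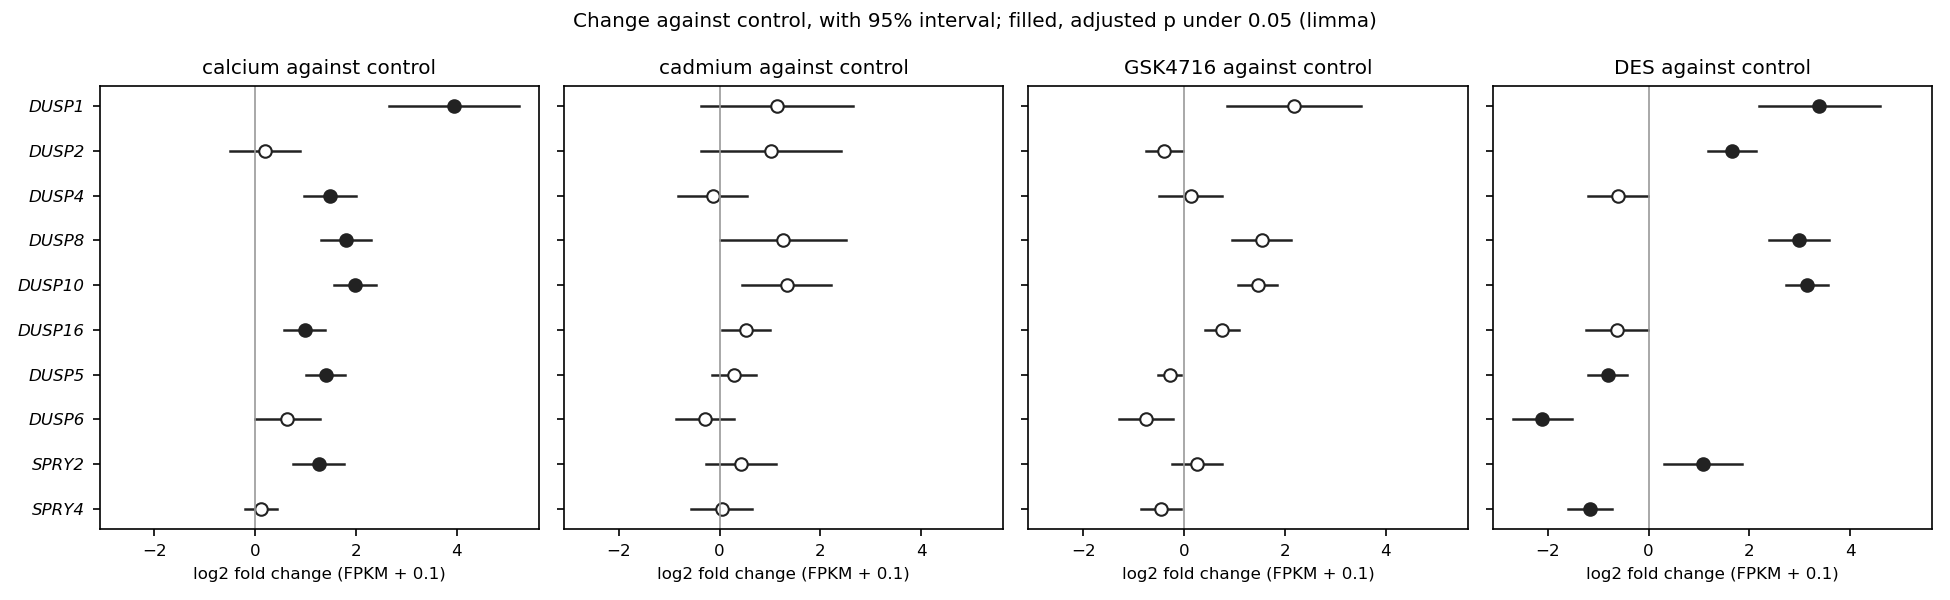
Log2 fold change of FPKM + 0.1 for each of the 10 genes against control, with 1 panel per treatment, bars for the 95% interval and filled points for an adjusted p under 0.05 (limma). With calcium 7 points are filled and all are above 0, with DES 5 are filled above 0 and 3 below, and with cadmium and GSK4716 none is filled.

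With cadmium, none of the 10 genes was called by limma, and 0.150% of all genes tested were. Unadjusted, limma gave 3 of the 10 a p under 0.05 (DUSP8, DUSP10 and DUSP16, all higher), against 25.9% of all genes, and limma-voom called 0. The cadmium libraries did not overlap those of the control for DUSP10 and DUSP16, 2 of the 10 genes, against 34.4% of all genes. Both shares are near the background. The median log2 difference of the 10 genes was 0.47, against 0.04 over all genes tested.

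The cadmium libraries were far apart for several of these genes. DUSP10 had 6.42, 10.3 and 17.1 FPKM, and DUSP8 had 6.29, 18.8 and 23.3. DUSP2 had 3.90, 13.5 and 19.3 FPKM, and DUSP1 had 5.83, 16.9 and 12.2. In each of the 4, replicate 1 was lowest and lay within or near the range of the control, and this is the library that correlated best with the control. The log2 differences from the control were 1.33 for DUSP10 (adjusted p = 0.105 by limma), 1.26 for DUSP8 (0.189), 1.14 for DUSP1 (0.285), 1.02 for DUSP2 (0.300) and 0.52 for DUSP16 (0.168). DUSP4, DUSP5, DUSP6, SPRY2 and SPRY4 overlapped the control. Without cadmium replicate 1, DUSP2 (1.70), DUSP8 (1.83) and DUSP10 (1.68) were called, with adjusted p-values of 0.0273, 0.0307 and 0.0351 by limma, and the number of all genes called was 1605 in place of 22. None of the 10 genes was called without cadmium replicate 2 or 3. With all 7 groups in one fit DUSP10 was called (adjusted p = 0.0135 by limma). The share of fragments from mitochondrial ribosomal RNA was 1.41% to 2.01% with cadmium and 0.795% to 1.39% in the control, and its part in these differences was not tested. Scaled by total fragments, 14 of all genes were called higher and 0 lower, against 19 and 3 as deposited.

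GSK4716 gave 0 calls by limma among the 10 genes and among all genes (0%). At an unadjusted p under 0.05, 4 of the 10 were higher and 4 lower, against 16.4% of all genes in either direction. For 7 of the 10 the GSK4716 libraries lay wholly above (DUSP1, DUSP8, DUSP10 and DUSP16) or wholly below (DUSP5, DUSP6 and SPRY4) those of the control, against 22.1% of all genes.

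DUSP8 had 13.6, 18.4 and 19.7 FPKM with GSK4716 and DUSP10 had 11.7, 12.5 and 10.1, each library above the highest of the control. The log2 differences were 1.54 for DUSP8 (adjusted p = 0.139 by limma) and 1.46 for DUSP10 (0.129). With limma-voom on the fragments these were the 2 genes called, with adjusted p-values of 0.0439 and 0.0366. DUSP1, at 18.2, 31.3 and 18.8 FPKM, had a log2 difference of 2.19 (adjusted p = 0.183 by limma), and DUSP16 one of 0.75 (0.142). On the other side, DUSP6 had 15.2, 15.7 and 16.4 FPKM, all under the lowest control library at 21.4, a log2 difference of -0.76 (adjusted p = 0.201 by limma). The difference was -0.46 for SPRY4 and -0.28 for DUSP5. DUSP2, with 3.51, 3.41 and 4.34 FPKM, was the fourth lower gene at an unadjusted p under 0.05 but overlapped the control, as did DUSP4 and SPRY2.

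DES resulted in the widest changes of the 4 single treatments, with 5 of the 10 genes called higher and 3 lower by limma. Of all genes tested 16.7% were called higher and 12.9% lower. The median log2 fold change of the 10 genes was 0.24, against 0.05 over all genes, since the genes moved in both directions.

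The JNK and p38 phosphatases DUSP8 and DUSP10 rose further with DES than with calcium in these libraries. DUSP8 had 35.5, 53.9 and 53.0 FPKM with DES, 7.91-fold above the control (log2 fold change 2.98, standard error 0.26, adjusted p = 0.000785 by limma). DUSP10 had 33.1, 41.7 and 36.2 FPKM, 8.83-fold above (3.14, standard error 0.18, adjusted p = 0.000237 by limma). The DES libraries of both genes lay above every calcium library, but DES and calcium were not tested against each other. DUSP16, of the same class, went the other way without being called, at 14.1, 17.7 and 9.07 FPKM against 17.2 to 22.1 in the control (-0.62, adjusted p = 0.112 by limma).

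DUSP1 had 65.5, 54.1 and 36.9 FPKM with DES, and rose 10.5-fold (log2 fold change 3.39, standard error 0.51, adjusted p = 0.00483 by limma). DUSP2, which had not been called with calcium, rose to 20.1, 14.3 and 13.6 FPKM (1.66, adjusted p = 0.00236 by limma). In both genes the lowest DES library was above the highest control library. DUSP4 was at 11.1, 11.1 and 7.36 FPKM, all under the lowest control library at 11.6, and was not called (-0.60, adjusted p = 0.111 by limma).

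DUSP5, DUSP6 and SPRY4 fell. DUSP6, the cytoplasmic ERK phosphatase, had 7.36, 5.41 and 5.80 FPKM with DES, all under every control library, and fell by 2.11 on the log2 scale (standard error 0.25, adjusted p = 0.00220 by limma). SPRY4 fell by 1.16 to 3.19, 3.89 and 4.35 FPKM (adjusted p = 0.00543 by limma), and DUSP5 fell by 0.81 to 13.8, 12.6 and 9.76 (adjusted p = 0.0128 by limma). The other Sprouty gene, SPRY2, was at 1.40, 2.86 and 1.69 FPKM and rose by 1.09 (adjusted p = 0.0446 by limma).

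The call of SPRY2 was lost without each of 5 libraries (control replicates 1, 2 and 3 and DES replicates 2 and 3), with 0.0996, 0.135, 0.107, 0.123 and 0.0696 as its adjusted p by limma. DUSP5 was not called without control replicate 1 (adjusted p = 0.0585 by limma) or 2 (0.0513). With no filter on low values the calls of DUSP1, DUSP5 and SPRY2 were lost and 5 remained. Scaled by total fragments on genes, DES called 1861 of all genes higher and 2538 lower, against 2447 and 1893 as deposited. DUSP4 and DUSP16 were then called lower and SPRY2 was not called. Of the 8 luminal markers 3 were called lower with DES and none higher by limma, and their median log2 difference was -0.13. GATA3 (-1.11) and FOXA1 (-1.17) were among those called lower (adjusted p of 0.00774 and 0.0155 by limma). The share of mitochondrial ribosomal RNA was 1.69% to 2.45% with DES, above each control library, while all mitochondrial genes together took 3.47% to 4.96% against 7.70% to 8.19%. The part of these in the results for DES was not tested.

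The effect of each metal in the presence of DES was read by comparing DES with the metal to DES alone. This comparison cannot tell whether DES altered the response, which the interaction further on tests. Adding calcium to DES gave 0 calls by limma among the 10 genes, with 0.136% of all genes called, and 0 by limma-voom. At an unadjusted p under 0.05, 4 of the 10 were higher (DUSP4, DUSP5, DUSP6 and SPRY4), against 13.2% of all genes in either direction. All libraries of DES with calcium lay above all DES libraries for these 4 and DUSP1, 5 of the 10 genes, against 7.84% of all genes.

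DUSP6 had 9.80, 10.6 and 10.1 FPKM in DES with calcium, above DES alone, a log2 difference of 0.72 (95% interval 0.31 to 1.13, adjusted p = 0.210 by limma). SPRY4 had 6.40, 9.17 and 5.97 FPKM, a difference of 0.88 (0.32 to 1.45, adjusted p = 0.239 by limma). The difference was 0.77 for DUSP5 and 1.37 for DUSP4, whose libraries spread from 11.5 to 49.1 FPKM. DUSP1 had 84.5, 71.7 and 65.9 FPKM, 0.54 above DES (-0.04 to 1.11). DUSP8, at 43.0, 47.6 and 20.6 FPKM, and DUSP10, at 43.4, 31.8 and 29.3, overlapped DES alone, as did DUSP2, DUSP16 and SPRY2.

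Adding cadmium to DES also gave 0 calls among the 10 genes by limma and by limma-voom, with 0.266% of all genes called by limma. Only 2 of the 10 were higher at an unadjusted p under 0.05, against 10.4% of all genes, which is not far from the background. They were DUSP2, with 42.5, 20.3 and 26.8 FPKM (0.85 above DES, adjusted p = 0.434 by limma), and DUSP5, with 27.1, 17.2 and 17.7 FPKM (0.76, adjusted p = 0.382 by limma). DUSP1 spread from 31.3 to 121 FPKM in this group. The value of 121 was in replicate 1, the library with the lowest ratio of library size to fragments. DUSP4, DUSP6, DUSP8, DUSP10, DUSP16, SPRY2 and SPRY4 were not called either, although SPRY2, with 0.860, 1.09 and 1.27 FPKM, lay wholly below DES alone at 1.40 to 2.86.

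The effect of calcium itself differed in the presence of DES for 3 of the 10 genes, by an interaction term in limma (the effect of calcium with DES minus its effect without). All 3 were lower, against 2.38% of all genes called lower. None was higher by limma or by limma-voom, against 1.25% of all genes, and 1 (SPRY4) was at an unadjusted p under 0.05, against 7.63%. For DUSP1, calcium gave 15.3-fold without DES and 1.45-fold with it, an interaction of -3.40 (standard error 0.60, adjusted p = 0.0164 by limma). For DUSP8 the values were 3.48-fold and 0.747-fold (-2.22, standard error 0.43, adjusted p = 0.0214 by limma). For DUSP10 they were 3.96-fold and 0.932-fold (-2.09, standard error 0.26, adjusted p = 0.00408 by limma).

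In these 3 genes DES alone had already raised the level. DUSP1 reached 76.2 ± 20.2 FPKM with calcium, 52.2 ± 14.4 with DES and 74.1 ± 9.53 with both (SD, n = 3). DUSP10 was at 16.5 ± 1.86, 37.0 ± 4.36 and 34.8 ± 7.50 FPKM, so the level with both was close to that with DES. SPRY2 had an interaction of -1.48 (adjusted p = 0.168 by limma) and SPRY4 one of 0.76 (0.142), and neither was called, nor were DUSP2, DUSP4, DUSP5, DUSP6 and DUSP16. The call of DUSP8 was lost without control replicate 1 (adjusted p = 0.0594 by limma), control replicate 2 (0.0622), DES replicate 2 (0.0612) or DES replicate 3 (0.0556). Without DES with calcium replicate 2, SPRY2 was called as well (-1.95, adjusted p = 0.0448 by limma). With no filter on low values DUSP10 was the 1 gene called, and with all 7 groups in one fit DUSP8 was not (adjusted p = 0.0831 by limma).

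For cadmium and DES, the interaction gave 0 calls among the 10 genes by limma and by limma-voom, with 1.18% of all genes called by limma. At an unadjusted p under 0.05, 3 were lower (DUSP8, DUSP10 and SPRY2), against 18.5% of all genes. DUSP1, DUSP2, DUSP4, DUSP5, DUSP6, DUSP16 and SPRY4 were not. DUSP10 had -1.63 (standard error 0.50, adjusted p = 0.120 by limma), and with all 7 groups in one fit it was called (adjusted p = 0.0331 by limma).

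**Figure D3:**
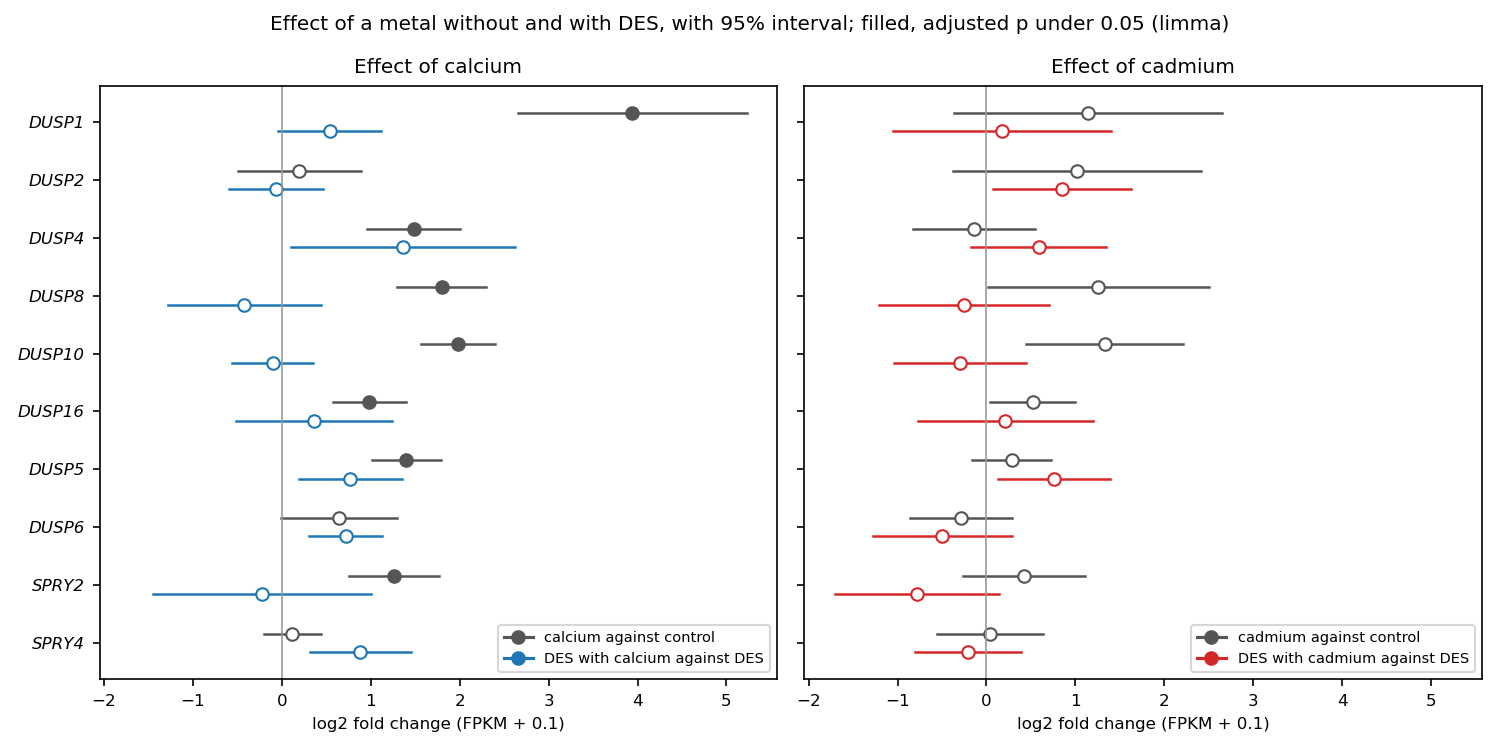
Log2 fold change of FPKM + 0.1 given by calcium (left) and cadmium (right) for each of the 10 genes, without DES (grey, against control) and with DES (coloured, against DES), with bars for the 95% interval and filled points for an adjusted p under 0.05 (limma). Calcium gives 3.94 for DUSP1 without DES and 0.54 with it, whereas the values for DUSP4 lie close together at 1.48 and 1.37.

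Cells with both DES and a metal were also compared with the metal alone. Against calcium, DES with calcium had 2 of the 10 genes higher (18.5% of all genes) and 3 lower (16.5%) by limma. The share higher is near the background, and the share lower is not far above it. DUSP2 was higher by 1.40 (adjusted p = 0.0131 by limma) and DUSP10 by 1.06 (0.00786). DUSP6 fell by 2.03 (adjusted p = 0.00175 by limma), DUSP5 fell by 1.44 (0.00644) and DUSP16 fell by 1.24 (0.0205). DUSP1 was at the same level, with a log2 difference of -0.02 and a 95% interval of -0.53 to 0.49. DUSP4, DUSP8, SPRY2 and SPRY4 were not called by limma, but DUSP8 was by limma-voom (adjusted p = 0.0476). The call of DUSP16 was lost without calcium replicate 1 (adjusted p = 0.0681 by limma) or 2 (0.0591), and DUSP8 was called without DES with calcium replicate 3. With no filter on low values only DUSP6 and DUSP10 were called. Scaled by total fragments, 2110 of all genes were higher and 3191 lower, against 2722 and 2426 as deposited, and SPRY4 was then called as well. Mitochondrial ribosomal RNA took 1.81% to 2.59% of fragments in DES with calcium and 0.540% to 1.15% with calcium, and its part in these differences was not tested.

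Against cadmium, DES with cadmium had 0 of the 10 genes called higher by limma (4.76% of all genes) and 2 lower (5.13%). DUSP6 fell by 2.31 (standard error 0.31, adjusted p = 0.0276 by limma) to 4.82, 2.87 and 5.84 FPKM. SPRY4 fell by 1.41 (standard error 0.29, adjusted p = 0.0399 by limma) to 3.34, 3.11 and 3.33 FPKM. At an unadjusted p under 0.05, 4 of the 10 were higher (DUSP1, DUSP2, DUSP8 and DUSP10) and 3 lower (DUSP6, DUSP16 and SPRY4), against 32.6% of all genes in either direction, and DUSP4, DUSP5 and SPRY2 were not among them. DUSP1 had 2.42 (adjusted p = 0.0504 by limma) and DUSP10 1.51 (0.0705). DUSP1 was called by limma-voom (adjusted p = 0.0354), and by limma with a pseudocount of 1 (0.0418) and with median-ratio scaling (0.0492). Neither fall was called by limma without cadmium replicate 1, 2 or 3 or DES with cadmium replicate 3, and DUSP6 was the 1 fall called without DES with cadmium replicate 2. Without DES with cadmium replicate 1, SPRY4 had an adjusted p of 0.0554 by limma and DUSP16 was called lower. With all 7 groups in one fit 7 of the 10 were called, where all genes called were 5459 in place of 1453. With no filter none was, and all genes called were 132. Scaled by total fragments, 359 of all genes were higher and 1043 lower, against 699 and 754 as deposited, and DUSP16 was then called lower. Mitochondrial genes together took 1.97% to 5.31% of fragments in DES with cadmium and 7.36% to 9.75% with cadmium, and their part was not tested.

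The order of levels over the 7 groups differed between the genes. DUSP1, DUSP4, DUSP5, DUSP6, DUSP16, SPRY2 and SPRY4 were highest on average with calcium. Of these, DUSP4, DUSP5 and DUSP16 were lowest with DES alone, DUSP6 and SPRY4 in DES with cadmium, and DUSP1 and SPRY2 in the control. DUSP6 went from 42.4 ± 9.71 FPKM with calcium through 27.6 ± 8.92 in the control, 22.0 ± 2.58 with cadmium, 15.8 ± 0.634 with GSK4716 and 10.2 ± 0.399 in DES with calcium to 6.19 ± 1.03 with DES and 4.51 ± 1.51 in DES with cadmium (SD, n = 3). Neighbours in that order overlapped at both ends (calcium and control, control and cadmium, DES and DES with cadmium) and were apart between cadmium and DES. DUSP8 and DUSP10 were highest with DES, then in the other groups with DES, whose libraries overlapped one another, then with calcium, GSK4716 and cadmium, and lowest in the control. For DUSP10 the 3 groups with DES lay wholly above the other 4. DUSP2 was highest in DES with cadmium at 29.9 ± 11.4 FPKM and lowest with GSK4716 at 3.76 ± 0.512 (SD, n = 3). SPRY2 stayed between 0.732 and 3.16 FPKM in all libraries, and each neighbour in its order overlapped the next.

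Summed by substrate, the phosphatases of JNK and p38 stood highest over those of ERK in the 3 groups with DES. DUSP5 and DUSP6 together had 48.6 ± 8.85 FPKM in the control, 98.9 ± 20.9 with calcium and 18.2 ± 2.81 with DES, while DUSP8, DUSP10 and DUSP16 together had 30.4 ± 4.80, 77.4 ± 5.02 and 98.1 ± 15.3 (SD, n = 3). The ratio of the second sum to the first was 0.744, 0.429 and 0.772 in the control libraries and 0.675, 0.880 and 0.841 with calcium. It was 1.76, 2.19 and 1.78 with GSK4716 and 3.91, 6.30 and 6.32 with DES. With calcium the sums changed together and the ratio overlapped that of the control, whereas with DES its lowest library was above every library without DES. With cadmium it was 0.900, 1.07 and 1.53, so that every library with cadmium or GSK4716 was also above every control library. DUSP16 was lower on average with DES than in the control, and the higher sum there was that of DUSP8 and DUSP10. The ratio was 2.86 ± 0.533 in DES with calcium and 3.61 ± 1.35 in DES with cadmium (SD, n = 3). These sums are a description and were not tested, and with 3 libraries on each side the p of an exact permutation test is never under 0.1. The 8 DUSP genes together had 105 ± 9.30 FPKM in the control, 300.1 ± 33.4 with calcium and 194 ± 20.3 with DES (SD, n = 3).

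**Figure D4:**
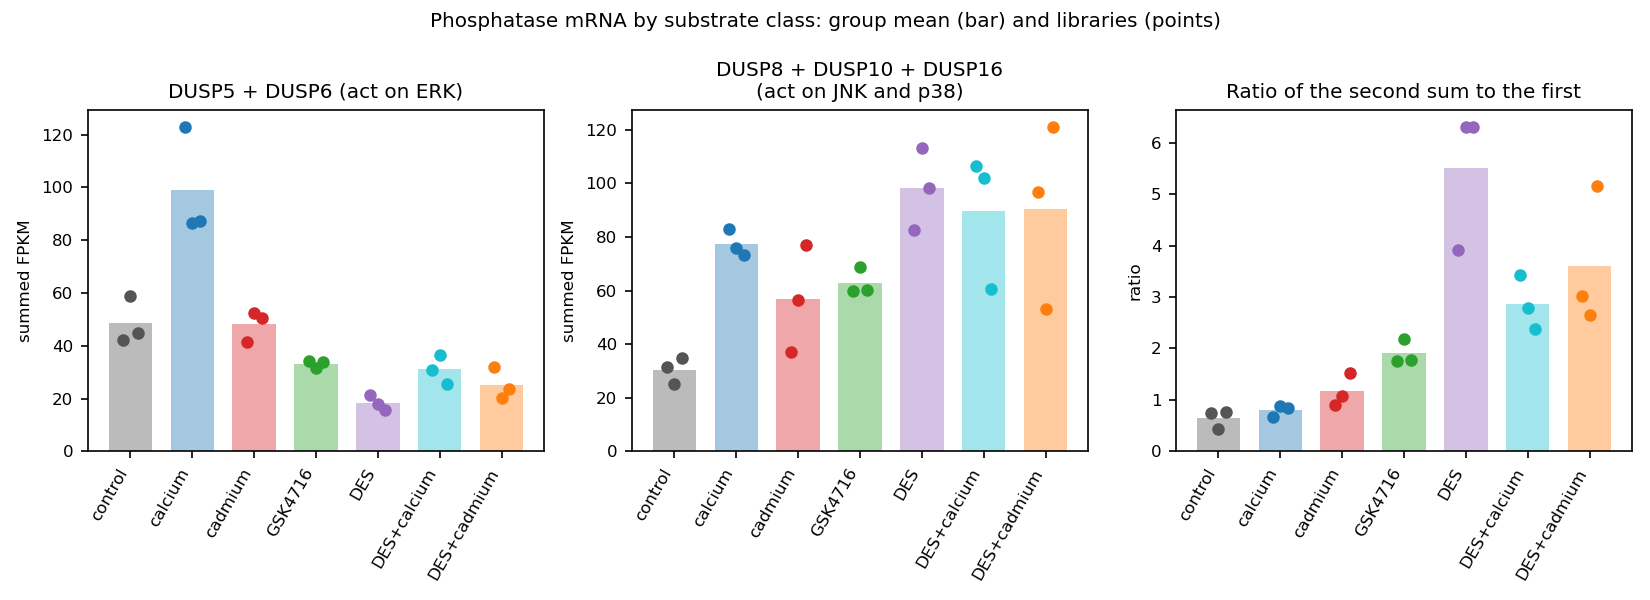
Summed FPKM of the ERK-selective phosphatases DUSP5 and DUSP6 (left) and of the JNK and p38 phosphatases DUSP8, DUSP10 and DUSP16 (middle). On the right is the ratio of the second sum to the first. Bars give the group mean and points the 3 libraries of each group. DUSP1, DUSP2 and DUSP4 are in neither sum. Both sums are higher with calcium than in the control, and the ratio is highest with DES, at 3.91 to 6.32.

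The other genes of the pathway were read from 7 lists. With calcium, 5 of the 55 list genes tested were called higher and 2 lower by limma (9.09% and 3.64%, against 4.60% and 2.53% of all genes). With DES, 5 were higher and 12 lower (9.09% and 21.8%, against 16.7% and 12.9%). The share called in either direction with DES was thus near that of all genes, but a smaller share was higher and a larger share lower. For DES with calcium against calcium, 5 were higher and 18 lower (9.09% and 32.7%, against 18.5% and 16.5%). For DES with cadmium against cadmium, 4 were higher and 3 lower (7.27% and 5.45%, against 4.76% and 5.13%). With no filter, 9 of the 23 called in the first remained and 1 of the 7 in the second. Of those 7, 0 remained without cadmium replicate 1, 2 or 3. Of 8 other genes known to rise with ERK output, 7 were tested and 3 were called higher with calcium by limma: PHLDA1 (3.68), IER3 (2.28), a survival factor of the immediate early type, and EPHA2 (1.74), an ephrin receptor. The list's median log2 fold change was 0.64, against 1.33 for the 10 feedback genes. IER3 had 68.8, 110.2 and 145 FPKM in the control and 459, 809 and 339 with calcium. With DES, IER3 was at 40.5, 30.1 and 27.9 FPKM and fell by 1.67 (adjusted p = 0.00790 by limma), EPHA4 fell by 1.16 (0.0177) and PHLDA1 rose by 1.24 (0.0495). This call of PHLDA1 was lost with a pseudocount of 1, where its log2 fold change was 0.40, and with no filter. A drop from 1.24 to 0.40 with the larger added value means that PHLDA1 was low in the control and with DES. Its fold change with calcium and its interaction therefore also start from low values. It was also lost with median-ratio scaling, scaling by total fragments, all 7 groups in one fit and the replicate block. Of the fits with 1 library left out, only that without DES replicate 3 had it. The interaction of calcium and DES was called for PHLDA1 (-3.11, adjusted p = 0.0344 by limma) and IER3 (-1.95, 0.0491).

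The counts for the kinases are small and are read against those shares. Of 9 MAP kinases tested, 1 was called with calcium (MAPK11, a p38 kinase, 1.13) and 1 with DES (MAPK14, also a p38 kinase, -0.56). Of 6 MAP kinase kinases, 0 were called with calcium by limma, and MAP2K4, which activates JNK, fell by 1.53 with DES (adjusted p = 0.00812 by limma). MAP2K3, an activator of p38, had an interaction of calcium and DES of -1.31 (adjusted p = 0.0431 by limma). Of 13 RAS, RAF and adaptor genes, 1 was called higher with calcium and 0 lower by limma. With DES 1 was higher (HRAS, 0.87) and 4 lower, among them the RAS exchange factors SOS1 (-1.82) and SOS2 (-1.44) and the ubiquitin ligase CBL (-0.81). Of 9 kinases activated by MAP kinases, calcium lowered 2, RPS6KA5 (-1.40) and MKNK2 (-0.70), while with DES RPS6KA1 was higher (0.81) and RPS6KA3 lower (-1.69).

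Of 8 other dual-specificity phosphatases tested, 0 were called with calcium by limma. With DES, DUSP11 (1.82) and DUSP12 (1.33) were higher and DUSP7 (-1.16) was lower. Of 3 other Sprouty and Spred genes tested, 0 were called with calcium and 2 were lower with DES, SPRED1 (-1.39) and SPRED2 (-1.19), which also restrain RAS signalling. With cadmium and with GSK4716, 0 genes of these 7 lists were called by limma. Of the 7 pathway genes called with calcium, 0 remained called without control replicate 1 or 2 and 0 with no filter on low values. Of the 17 called with DES, 9 remained without control replicate 1, 10 without control replicate 2 and 8 with no filter. The 3 pathway genes with a called interaction of calcium and DES (PHLDA1, IER3 and MAP2K3) were all lost with no filter. They were also all lost without control replicate 1 or 2, calcium replicate 1 or 2, DES replicate 2 or 3, or DES with calcium replicate 1 or 3. PHLDA1 was not called with a pseudocount of 1, IER3 with median-ratio scaling, or IER3 and MAP2K3 with all 7 groups in one fit.

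**Figure D5:**
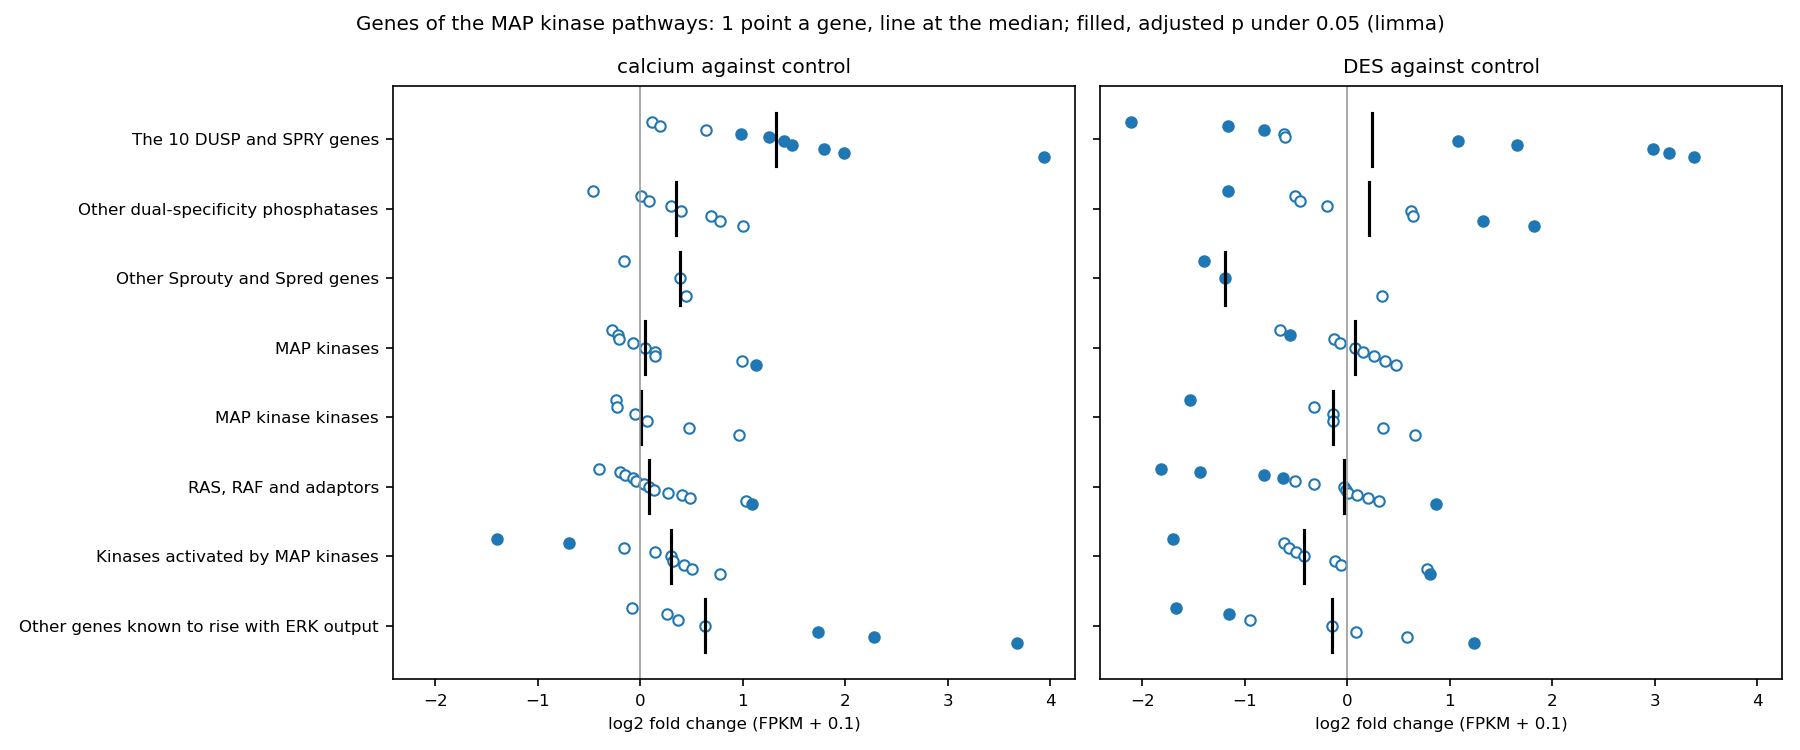
Log2 fold change of FPKM + 0.1 with calcium (left) and with DES (right) for the 10 feedback genes and the genes of 7 pathway lists, with 1 point per gene, a line at the median and filled points for an adjusted p under 0.05 (limma). With calcium the 10 feedback genes have a median of 1.33 and the MAP kinases one of 0.05.

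The genes whose pattern was most like each of the 10 were found by Pearson correlation of log2(FPKM + 0.1) over the 21 libraries. These libraries are 7 groups of 3 and are not independent, so the values describe the pattern only. DUSP8 and DUSP10 were each other's most similar gene, at 0.957, and SLC25A25 came next for both (0.930 and 0.947). SPRY4 was most like DUSP6 (0.877), while DUSP6 was most like AL591848.4 (0.949) and TRIB2 (0.917). JUN was among the genes most like DUSP1 (0.935), and DUSP2 was most like DNAJB1 (0.964), HSPA7 (0.959) and HSPA1B (0.954). The highest value was 0.901 for DUSP16 (VPS37B), 0.899 for DUSP5 (CLDN7), 0.866 for DUSP4 (TM4SF1) and 0.805 for SPRY2 (GBP2). Among the 10 genes, the correlation of DUSP10 was 0.855 with DUSP1 and -0.655 with DUSP6.

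Several of the genes overlap others on the opposite strand, and the labels describe the use of strand in different ways, so reads of such pairs may not have been told apart. DUSP8 shares 568 bases with the antisense gene KRTAP5-AS1, whose mean was 75.4 fragments per library against 2300 for DUSP8. The control had a mean of 0.420 FPKM of this gene, calcium 2.29, cadmium 2.60, GSK4716 1.64 and DES 1.30. With DES it was at 0.400 when calcium was added and 0.680 when cadmium was. DUSP6, DUSP16 and DUSP1 overlap AC024909.2, AC007619.1 and AC022217.3, which had means of 16.3, 3.48 and 0.0952 fragments, and SPRY4 overlaps SPRY4-AS1, with 7.95.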

How the data were processed

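RNA-seq of 21 MDA-MB-453 libraries was used. The authors sequenced them paired-end and deposited FPKM per gene with gene length, which is in bases, and the submitters' processing notes name HISAT2 2.0.5, featureCounts 1.5.0-p3 and GRCh38.p14. Their own tests, with DESeq2 and edgeR, were not rerun. FPKM multiplied by length and by a library size inferred for each library gave whole fragments (within 0.05) for 100% of values. At most 0.489% of genes with at least 50 fragments were equal in any pair of libraries.

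Tests used limma 3.58.1 in R 4.3.3 (lmFit, eBayes with a trend) on log2(FPKM + 0.1). The 14686 genes averaging 0.5 FPKM or more were tested, with only the compared libraries in the fit, two-sided, adjusted by Benjamini-Hochberg over all genes (threshold 0.05). The steps were tested on simulated data with the same spread set for every gene and no outlying library. Such a test does not cover the dependence of the calls on single libraries. There were 10 comparisons: 4 treatments against control, each DES and metal group against DES and against the metal, and 2 interactions. Tables and figures used Python 3.11.15. Alternatives were a pseudocount of 1, no filter (45127 genes), median-ratio scaling, scaling by total fragments, all 7 groups in one fit, a replicate block, limma-voom and each library left out.

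All 10 genes are named in every comparison. Of the pathway lists, up to 4 called genes with the largest change are named, and some genes are not used here. The 3 most correlated genes define the most similar ones. The 10 genes and the lists were chosen with earlier results of these data known. The deviations of libraries with equal replicate numbers correlated above 0.1 in all 3 pairs only for DES with calcium against DES (0.132, 0.103 and 0.280) and DES with cadmium against DES (0.472, 0.121 and 0.313).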

Additional observations from a re-analysis of the deposited data

Results flagged for a closer look

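For 3 genes the effect of calcium with DES differed from its effect without DES, by the interaction term in limma. The interaction was -3.40 for DUSP1 (adjusted p = 0.0164 by limma), -2.22 for DUSP8 (0.0214) and -2.09 for DUSP10 (0.00408). Each rose with calcium alone and with DES alone, and none was called when calcium was added to DES. The 95% interval of the interaction was -4.72 to -2.09 for DUSP1, -3.16 to -1.28 for DUSP8 and -2.67 to -1.51 for DUSP10.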

How the results depend on the processing

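Over the alternatives other than left-out libraries, 718 of the values tried for 120 fold changes kept their direction and their side of the threshold, 111 kept the direction and lost the call, and 11 gained it. With 1 library left out these numbers were 533, 234 and 4, and 3 reversed: DUSP1 in DES with calcium against calcium (-0.02) ran from -0.16 to 0.19, and was 0.19 without calcium replicate 2, and 0.0028 and 0.06 without DES with calcium replicates 2 and 3. The causes were not tested.

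Of the 10 genes, limma called 7 with calcium, 8 with DES, 5 for DES with calcium against calcium, 2 for DES with cadmium against cadmium and 3 for the interaction of calcium and DES. With no filter on low values these were 0, 5, 2, 0 and 1, where more genes share the adjustment. With all 7 groups in one fit, calcium gave 5 (without DUSP16 and SPRY2), the interaction of calcium and DES 2 (without DUSP8) and DES with cadmium against cadmium 7, and cadmium against control and its interaction with DES gave 1 each in place of 0. With limma-voom GSK4716 gave 2 in place of 0. With 1 library left out the numbers were 0 to 6 with calcium, 0 to 3 with cadmium, 6 to 8 with DES, 4 to 6 for DES with calcium against calcium, 0 to 2 for DES with cadmium against cadmium and 2 to 4 for the interaction of calcium and DES.

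With the replicate block, calcium called 3 of the 10 genes in place of 7 (DUSP5, DUSP8 and DUSP10), DES 7 in place of 8 (without SPRY2) and DES with cadmium against cadmium 0 in place of 2. It changed no other call among the 10 genes, and the libraries of these 3 comparisons share only replicate numbers. In the interaction of calcium and DES, MAP2K3 was not called with the block. Of the pathway genes, 1 of the 7 called with calcium (PHLDA1) and 13 of the 17 called with DES remained. For DES with calcium against calcium 21 of 23 remained, and for DES with cadmium against cadmium 0 of 7. With it, genes called were 260 in place of 1046 with calcium, 3 in place of 22 with cadmium, 0 in place of 20 and 39 for the metals on DES, 0 in place of 1453 for DES with cadmium against cadmium, and 291 in place of 173 for the interaction of cadmium and DES.

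Over all genes, no filter gave 60 with calcium, 38 with cadmium, 2106 in place of 4340 with DES, 0 and 7 for calcium and cadmium on DES, 2320 in place of 5148 for DES with calcium against calcium, 132 for DES with cadmium against cadmium and 208 in place of 533 for the interaction of calcium and DES. All 7 groups in one fit gave 1026 with cadmium, 166 and 603 for calcium and cadmium on DES, 5459 for DES with cadmium against cadmium, and 180 and 802 for the calcium and cadmium interactions. Limma-voom gave 1582 with calcium, 482 with cadmium, 79 in place of 0 with GSK4716, and 0 and 0 for calcium and cadmium on DES. A pseudocount of 1 gave 148 with cadmium, 5 and 77 for calcium and cadmium on DES and 368 for the interaction of cadmium and DES. Scaling by total fragments gave 14 with cadmium.

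With 1 library left out, genes called ran from 7 to 758 with calcium, 1 to 1605 with cadmium, 1930 to 5078 with DES, 0 to 41 and 0 to 96 for calcium and cadmium on DES, 3263 to 4260 for DES with calcium against calcium, 0 to 1052 for DES with cadmium against cadmium, and 181 to 830 and 15 to 410 for the calcium and cadmium interactions. Scaling by total fragments moved the median log2 difference of all genes from -0.01 to -0.13 with calcium, from 0.05 to -0.12 with DES, from 0.00 to -0.13 for calcium on DES, from -0.04 to -0.24 for cadmium on DES, from -0.01 to -0.20 for DES with calcium against calcium, from -0.08 to -0.39 for DES with cadmium against cadmium and from -0.09 to -0.23 for the interaction of cadmium and DES. Depth limits SPRY2 most, at 41 to 208 fragments.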

Other observations

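The groups with DES and a metal had libraries that lay far apart for several of the 10 genes, in FPKM. In DES with calcium, DUSP4 had 27.9, 49.1 and 11.5 FPKM, DUSP16 had 20.0, 22.5 and 10.7, and SPRY2 had 1.40, 3.16 and 0.919, each highest in replicate 2 and lowest in replicate 3. In DES with cadmium, DUSP1 ranged from 31.3 to 121 FPKM and DUSP16 had 25.4, 10.1 and 13.6, each highest in replicate 1 and lowest in replicate 2. DUSP8, with 39.9, 23.2 and 64.6 FPKM, was also lowest in replicate 2 but highest in replicate 3.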
